A study of Rattus norvegicus with 12 samples.

Results

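Interleukins and their receptors were followed through the lungs of rats in the SuHx model of pulmonary arterial hypertension. Every row of the deposited gene table was taken whose symbol begins with Il and a number, provided its mean signal over the 12 libraries was at least 1. This gave 66 of the 81 such rows in a table of 19230 rows. The 66 rows hold 66 interleukin genes, since Il18r1 stands in 2 rows and 7 rows merge an interleukin gene with a neighbour or relative (Akap17a/Il3ra, Creld1/Il17rc, CXHXorf65/Il2rg, Ifnar2/Il10rb, Il18bp/Rnf121, Il18r1/Il1rl1 and Il4i1/Nup62). For a merged row it is not known which of its genes a change belongs to.

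Total lung RNA of Sprague-Dawley rats was sequenced in 3 groups of 3 libraries: rats labelled Ahr-KO at day 4 of Sugen and hypoxia (Ahr-KO SuHx), wild-type rats at day 4 of the same treatment (WT SuHx), and wild-type rats in normoxia at day 0. Another group of 3 libraries came from endothelial cells (ECs) of wild-type rats in normoxia, labelled day 4 although the table's columns name day 0. Sugen (SU5416) inhibits VEGF receptors, and with hypoxia it gives SuHx, while Ahr encodes the aryl hydrocarbon receptor, a ligand-activated transcription factor. The sources used here do not give age, sex, the allele, how the ECs were obtained, or whether a library is 1 animal, and p-values therefore measure the spread between libraries. No group analysed here received Sugen or hypoxia alone and none was Ahr-KO in normoxia, so the parts of the treatment cannot be told apart and the genotypes are compared only under SuHx.

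The signal is an estimated read count divided by 1 factor per library, so levels may be compared between libraries but not between genes of different length. Its total per library lay between 20567809 and 27052927. Ahr itself had a signal of 2515, 2523 and 1800.0 in the lungs labelled Ahr-KO, against 1996, 3073 and 1740 in WT SuHx lungs. The ranges overlap, so this RNA does not check the label; the labels do not say which part of the gene was deleted. Libraries are named by group and by the number 0 to 2 in their column. Normoxia library 2 and Ahr-KO library 2 were the highest of their groups in summed cardiac muscle markers (24548 against 5558 and 6943 in the other Ahr-KO libraries, and 11331 against 832 and 1619 in the other normoxia libraries). The WT SuHx lungs had 2603 to 3468. Lung calls of interleukin rows that were lost without both of these libraries are given with each gene. Summed fibroblast markers were 132545 to 167886 in Ahr-KO SuHx lungs, 113265 to 150344 in WT SuHx lungs and 71136 to 89836 in normoxia lungs. The collagen gene Col3a1 made up 58.3 to 68.5% of this sum in the lung groups. Of the 8 fibroblast markers, 3 were called higher and 0 lower in each SuHx group against normoxia. That is 37.5%, beside 13.5% of all rows called in WT SuHx and 9.75% in Ahr-KO lungs. In each group 62.5% of these markers lay above 0, beside 45.7% of all rows in WT SuHx and 45.8% in Ahr-KO lungs. Lyz2, which made up 92.3 to 95.5% of the summed monocyte and macrophage markers in the lung groups, was not called in any lung comparison. The other 9 markers of these cells summed to 13685 to 16804 in Ahr-KO SuHx lungs, 16327 to 17501 in WT SuHx lungs and 15430 to 18321 in normoxia lungs, and of the 9 markers tested, Lyz2 among them, only C1qa was called, higher in both SuHx groups than in normoxia. The largest part of the sum without Lyz2 was a merged row of Csf1r and Pdgfrb. That row had 7058 to 10006 in Ahr-KO SuHx lungs, 8240 to 10065.5 in WT SuHx lungs and 9191 to 10688 in normoxia lungs. Which of its genes this signal belongs to is not known. Summed alveolar epithelial markers were 464662 to 503051 in Ahr-KO SuHx lungs, 387314 to 570633 in WT SuHx lungs and 520825 to 758585 in normoxia lungs. No marker of any of the 12 cell type lists was called between Ahr-KO and WT SuHx lungs. All 8 cardiac muscle markers were nevertheless higher on average in the Ahr-KO lungs, beside 53.3% of all rows. The genotypes did not overlap for 7 of them, beside 21.9% of all rows. The part of these cells in the lung results was not tested.

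Interleukins are secreted messengers of immune and structural cells, and each acts through a receptor of several chains, some of them shared between families. The IL-1 family passes its signal through MyD88 and IRAK kinases to NF-kB, and is held in check by a receptor antagonist (Il1rn), by a decoy receptor without a signalling domain (Il1r2) and by a binding protein for IL-18 (Il18bp). Most other families act through JAK kinases and STAT factors, and the IL-17 family through the adaptor Act1 (Traf3ip2). In the lung, IL-1 and IL-6 are known for their part in vascular inflammation, and IL-33 for alarm signals of endothelium and epithelium.

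Of the 66 rows, 14 had a mean signal under 10 over the 12 libraries, 12 between 10 and 100, 22 between 100 and 1000, and 18 above 1000. The rule's limit fell between Il5, Il20ra and Il22, with means of 1.12, 1.45 and 1.49, and Il2, Il20 and Il4, with 0.807, 0.772 and 0.740. The 15 rows under the limit were Il13, Il17f, Il1f10, Il1rapl1, Il1rapl2, Il2, Il20, Il21, Il3, Il31, Il36a, Il36g, Il36rn, Il4 and Il9. Il17a and Il22 entered only through the ECs: both were listed at 0 in the WT SuHx and normoxia lungs, and were not tested in lung. In the lung fit, 64 rows had a mean of at least 1 over the 9 lung libraries. The test was limma on log2(signal + 1), and rows with an adjusted p under 0.05 (Benjamini-Hochberg, over all 15234 rows tested) are those called.

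Over all 64 tested rows, 6 were called in WT SuHx against normoxia lungs, of which 4 rose (Il1r1, Il1r2, Il1rl2 and Il17b) and 2 fell (Il16 and Il22ra2). That is 9.38% of the interleukin rows, beside 13.5% of all rows (7.08% rose and 6.39% fell). In Ahr-KO against WT SuHx lungs 2 were called and both fell, which is 3.12% beside 0.499% of all rows (0.302% for rows that fell). In Ahr-KO against normoxia lungs 8 were called, 12.5% beside 9.75% of all rows (5.95% rose and 3.8% fell). Of these, Il1r2, Il17b and the Il4i1/Nup62 row rose and Il15, Il16, Il22ra2, Il33 and Il34 fell. The counts depended on single libraries. In WT SuHx against normoxia 3 were called without WT SuHx library 0 or 1, and in Ahr-KO against WT SuHx 1 (Il1r1) without any 1 of the 6 libraries compared. In Ahr-KO against normoxia 2 were called without Ahr-KO library 1, 3 without normoxia library 0, 4 without normoxia library 1, WT SuHx library 0 or Ahr-KO library 2, and 5 without WT SuHx library 1 or Ahr-KO library 0. The first and last comparisons share the normoxia libraries, and the first and second the WT SuHx libraries, so their calls are not independent.

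Il1r1, Il1r2 and Il1rl2, all of the IL-1 receptor family, rose in WT SuHx lungs, and the first and second of them fell in the lungs labelled Ahr-KO under the same treatment. Il1r1, the signalling receptor for IL-1 alpha and IL-1 beta, had a signal of 2126, 2237 and 1930.0 in Ahr-KO SuHx lungs, 4029.7, 4688 and 3818 in WT SuHx lungs, and 2658, 2295 and 2268 in normoxia lungs. All WT SuHx libraries lay above both other groups, and all Ahr-KO libraries lay below all normoxia libraries. The log2 fold change was 0.79 ± 0.11 (SE) in WT SuHx against normoxia lungs (adjusted p = 0.00221), a 1.73-fold higher level. It was -0.99 ± 0.11 in Ahr-KO against WT SuHx lungs (adjusted p = 0.00383), with a 95% interval of -1.23 to -0.75. Against normoxia the Ahr-KO lungs gave -0.20 ± 0.11, which was not called (adjusted p = 0.284) although the groups did not overlap. The calls of WT SuHx against normoxia and of Ahr-KO against WT SuHx were kept in all 18 alternative analyses, with adjusted p up to 0.0173 and 0.0354. In whole-lung RNA, fewer cells of a type and less RNA per cell cannot be told apart.

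Il1r2, the decoy receptor that takes up IL-1 without passing on a signal, had a signal of 68.1, 88.6 and 71.4 in Ahr-KO SuHx lungs, 199.6, 187 and 248 in WT SuHx lungs, and 28.6, 39.2 and 42.9 in normoxia lungs. The 3 groups did not overlap, with the WT SuHx lungs highest, the Ahr-KO SuHx lungs between and the normoxia lungs lowest. In WT SuHx lungs it rose 5.64-fold over normoxia (log2 2.50 ± 0.22, adjusted p = 0.000349). In Ahr-KO lungs it was 2.76-fold lower than in WT SuHx lungs (log2 -1.46 ± 0.22, adjusted p = 0.0291) and 2.05-fold higher than in normoxia (log2 1.03 ± 0.22, adjusted p = 0.0202). The call between genotypes was lost without any 1 of the 6 libraries compared: the adjusted p became 0.144, 0.0694 and 0.0724 without Ahr-KO library 0, 1 and 2, and 0.118, 0.0779 and 0.111 without WT SuHx library 0, 1 and 2, with log2 values of -1.58 to -1.35. Without both library 2 of Ahr-KO and library 2 of normoxia the adjusted p was 0.0645. The call of Ahr-KO against normoxia was lost in 4 of 18 alternatives, among them without Ahr-KO library 1 (0.0852), without normoxia library 0 (0.0702) and after quantile normalization (0.0738). Neutrophils are known to carry Il1r2, and the summed signal of 10 neutrophil markers was 9233 to 13895 in Ahr-KO SuHx lungs, 9393 to 14162 in WT SuHx lungs and 2465 to 5410 in normoxia lungs. None of the 10 markers was called between the genotypes (90% lay above 0, beside 53.3% of all rows, with a median log2 of 0.57). In Ahr-KO against normoxia lungs 4 (Mmp8, Camp, Ngp and Lcn2) were called higher (40%, beside 9.75% of all rows called). In WT SuHx against normoxia lungs 1 (Lcn2) was called higher (10%, beside 13.5% of all rows called). Lcn2 alone made up 47.2% of the sum in Ahr-KO SuHx, 64.4% in WT SuHx and 40.7% in normoxia lungs, and the other 9 markers summed to 4448 to 6776 in Ahr-KO SuHx lungs, 2860 to 6699 in WT SuHx lungs and 1108 to 3610 in normoxia lungs. Summed endothelial markers were 72204 to 90077 in Ahr-KO SuHx lungs, 79969 to 83779 in WT SuHx lungs and 91377 to 96038 in normoxia lungs. The 10 endothelial markers did not move together: 1 was called higher and 2 lower in each SuHx group against normoxia. That is 30%, beside 13.5% of all rows called in WT SuHx and 9.75% in Ahr-KO lungs. The part of these cells in the change of Il1r1 and Il1r2 was not tested.

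Il1rl2, the receptor for the IL-36 cytokines, had a signal of 136, 184 and 138 in Ahr-KO SuHx lungs, 164, 201 and 168 in WT SuHx lungs, and 107, 129 and 92.8 in normoxia lungs. The Ahr-KO and WT SuHx lungs overlapped, and both lay above normoxia. It rose 1.62-fold in WT SuHx against normoxia lungs (log2 0.70 ± 0.20, adjusted p = 0.0454), while Ahr-KO against WT SuHx lungs gave log2 -0.22 ± 0.20 (adjusted p = 0.624) and Ahr-KO against normoxia lungs 0.47 ± 0.20 (adjusted p = 0.164). The call was lost in 12 of 18 alternatives. The adjusted p was 0.121 and 0.0896 without normoxia library 0 and 2, 0.0952, 0.1 and 0.0902 without WT SuHx library 0, 1 and 2, and 0.063 and 0.0531 without Ahr-KO library 0 and 1. Without both library 2 of Ahr-KO and library 2 of normoxia it was 0.0825.

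The other 4 rows of the IL-1 receptor family were not called in any lung comparison. The row shared by Il1rl1 (ST2, the receptor for IL-33) and Il18r1 had a signal of 798, 887 and 614 in Ahr-KO SuHx lungs, 483, 479 and 334 in WT SuHx lungs, and 714, 530.0 and 727 in normoxia lungs. Here the WT SuHx lungs were the lowest, below all libraries of both other groups. The log2 difference was 0.83 ± 0.20 in Ahr-KO against WT SuHx lungs (adjusted p = 0.133) and -0.61 ± 0.20 in WT SuHx against normoxia lungs (adjusted p = 0.0712). Il1rap, the accessory chain that Il1r1, Il1rl1 and Il1rl2 share, gave 0.24 ± 0.20 in Ahr-KO against WT SuHx lungs and -0.22 ± 0.20 in WT SuHx against normoxia lungs. The IL-18 receptor chains Il18r1 and Il18rap gave -0.36 ± 0.27 and -0.20 ± 0.21 in Ahr-KO against WT SuHx lungs.

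**Figure D1:**
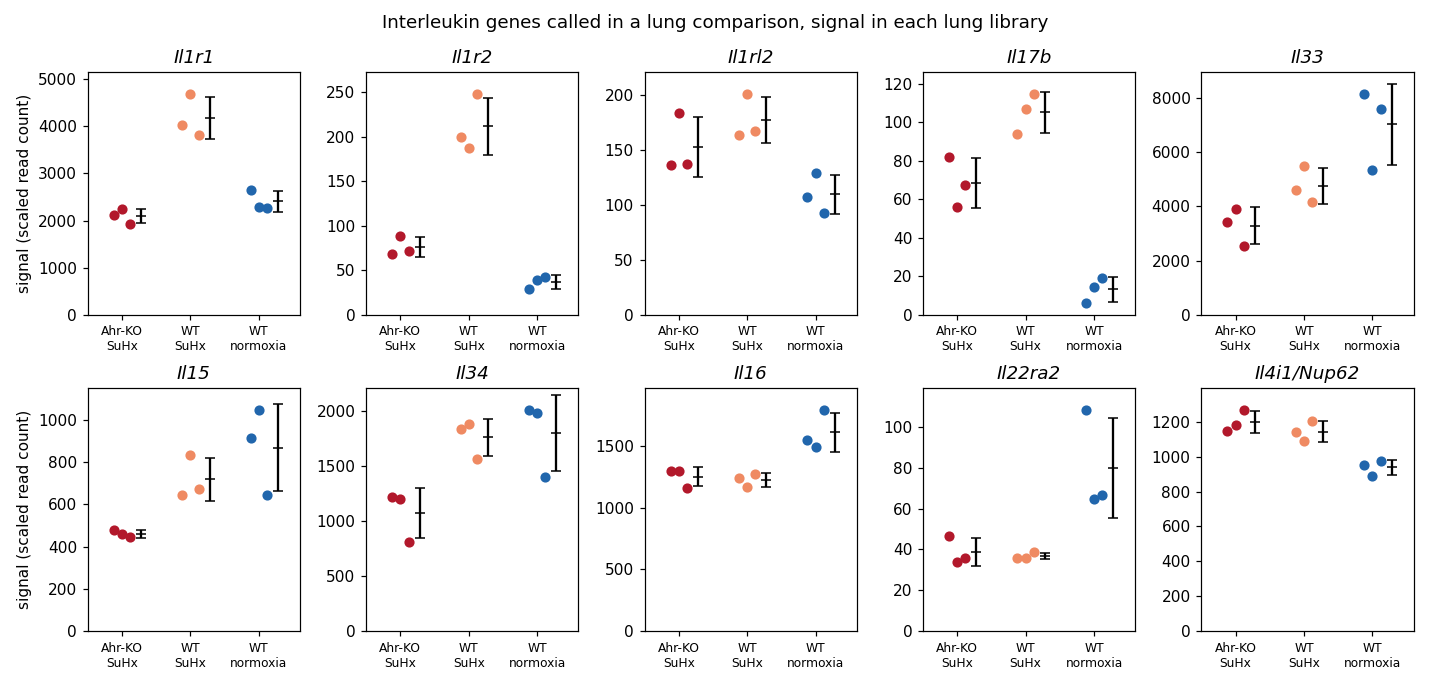
Signal (scaled read count, linear axis from 0) of the 10 interleukin rows called in a lung comparison, with 1 point per library in Ahr-KO SuHx, WT SuHx and WT normoxia lungs and the mean ± SD of 3 libraries beside them. Il1r1 in Ahr-KO SuHx lungs lies between 1930.0 and 2237 and in WT SuHx lungs between 3818 and 4688, and for Il1r2 none of the 3 groups overlap.

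Il1r2, Il1r1, Il1rl2, Il1rl1, Il18r1 and Il18rap lie in this order on chromosome 9 of the GRCr8 assembly, another build than the rn6 of the submitters' processing notes, and the order was read by symbol alone. Between Il1r2 and Il1r1 the annotation lists H3f3al3, which has no row in the table used here. Map4k4, which flanks the cluster next to Il1r2, was not called. It gave log2 0.05 ± 0.13 in Ahr-KO against WT SuHx lungs and -0.07 ± 0.13 in WT SuHx against normoxia lungs (adjusted p = 0.883 and 0.754). On the other side Slc9a4, next to Il18rap, had a signal of 0 to 2.28 in the lung libraries and was not tested. Within the cluster the direction was not shared by all: Il1r2 and Il1r1 were higher in WT SuHx than in either other group, and the Il18r1/Il1rl1 row lower.

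**Figure D2:**
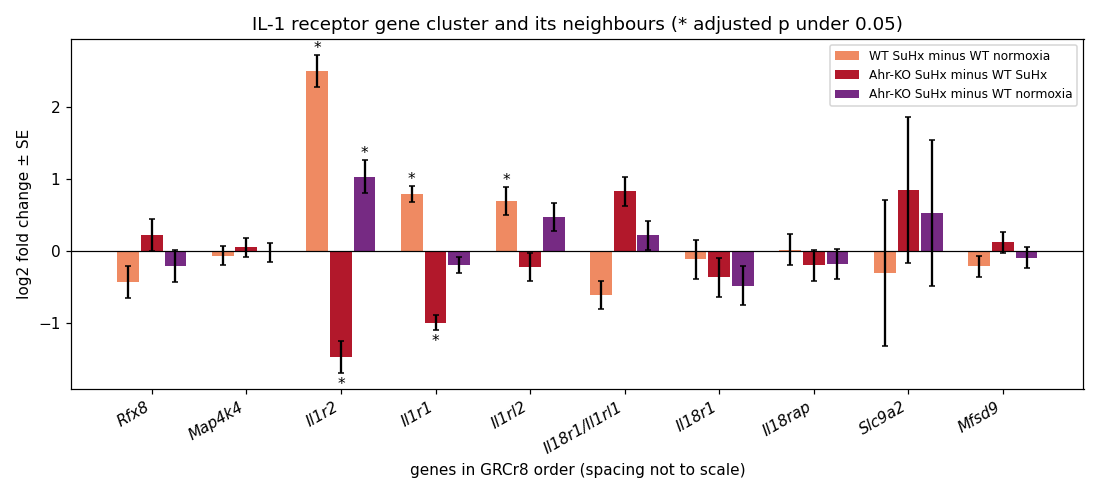
Log2 fold change (bars, ± SE) of the genes of the IL-1 receptor cluster and of its neighbours in the 3 lung comparisons, drawn in chromosome order with spacing not to scale; an asterisk marks an adjusted p under 0.05. Il1r2 stands at 2.50 in WT SuHx minus WT normoxia and at -1.46 in Ahr-KO SuHx minus WT SuHx, while Map4k4 beside it stands at -0.07 and 0.05.

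Promoter windows from RefSeq (GRCr8, 250 bases before to 50 after a gene's start) were present for 7 of the 10 genes called in lung, in 12 windows, and for 51 of the 66 interleukin genes. Shown are those of the 2 called cluster genes with a window and of Il17b, the called gene with the highest fold change in WT SuHx lungs, each 5′ to 3′ on its gene's strand. Capitals mark a match to GCGTG, a core at which the aryl hydrocarbon receptor and its partner bind (CACGC on the other strand). They also mark ACGTG, a core of the hypoxia-inducible factors (CACGT on the other strand). Neither core is taken here as particular to 1 of these factors.
Il1r1 (chr9:50034133-50034432, + strand): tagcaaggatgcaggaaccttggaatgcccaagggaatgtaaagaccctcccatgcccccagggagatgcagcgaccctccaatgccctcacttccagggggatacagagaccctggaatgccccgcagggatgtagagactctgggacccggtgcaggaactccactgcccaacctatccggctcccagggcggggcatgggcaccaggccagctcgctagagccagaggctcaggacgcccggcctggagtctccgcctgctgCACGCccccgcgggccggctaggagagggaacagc
Il1rl2 (chr9:50087302-50087601, + strand): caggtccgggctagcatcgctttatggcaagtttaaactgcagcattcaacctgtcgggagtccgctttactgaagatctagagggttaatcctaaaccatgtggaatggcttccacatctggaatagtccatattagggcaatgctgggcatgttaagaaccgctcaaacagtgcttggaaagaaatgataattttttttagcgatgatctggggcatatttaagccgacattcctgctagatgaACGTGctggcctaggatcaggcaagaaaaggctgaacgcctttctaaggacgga
Il17b (chr18:57411282-57411581, + strand): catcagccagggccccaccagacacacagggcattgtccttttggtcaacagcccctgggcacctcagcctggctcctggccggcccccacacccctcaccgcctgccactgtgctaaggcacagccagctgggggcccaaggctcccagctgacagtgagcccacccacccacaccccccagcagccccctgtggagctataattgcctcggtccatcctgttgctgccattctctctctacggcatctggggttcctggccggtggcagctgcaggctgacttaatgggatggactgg
The Il1r1 window holds GCGTG at base 266, read on the other strand, and the Il1rl2 window ACGTG at base 247. The Il17b window matches neither. GCGTG was in 2 of the 12 windows of called genes, in 27.6% of the 58 windows of all interleukin genes and in 29.7% of all 33469 windows of the table. ACGTG was in 1 of 12, in 6.9% and in 19.3%, and TTCNNNGAA, the spaced palindrome of the STAT factors, in 0 of 12, in 12.1% and in 8.87%. These shares describe letters in a window and say nothing of binding.

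The median log2 difference between Ahr-KO and WT SuHx lungs was -0.14 over the 64 interleukin rows and 0.02 over all rows. Of the 64 rows, 41 lay below 0 and 35.9% above 0, beside 53.3% of all rows above 0. Groups did not overlap for 15 rows, 11 of them lower and 4 higher in Ahr-KO lungs, which is beside 21.9% of all rows. In WT SuHx against normoxia lungs the median was -0.03 (all rows -0.04) and 21 rows did not overlap, beside 36.7% of all rows. In Ahr-KO against normoxia lungs the median was -0.09 (all rows -0.03), or -0.11 with Il24, listed at 0 in normoxia, set to 3 reads per library there. In that comparison 18 rows did not overlap, beside 33% of all rows. The rows not called spanned -1.28 to 1.53 in Ahr-KO against WT SuHx lungs, ends held by the weakly measured Il24 and Il9r.

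**Figure D3:**
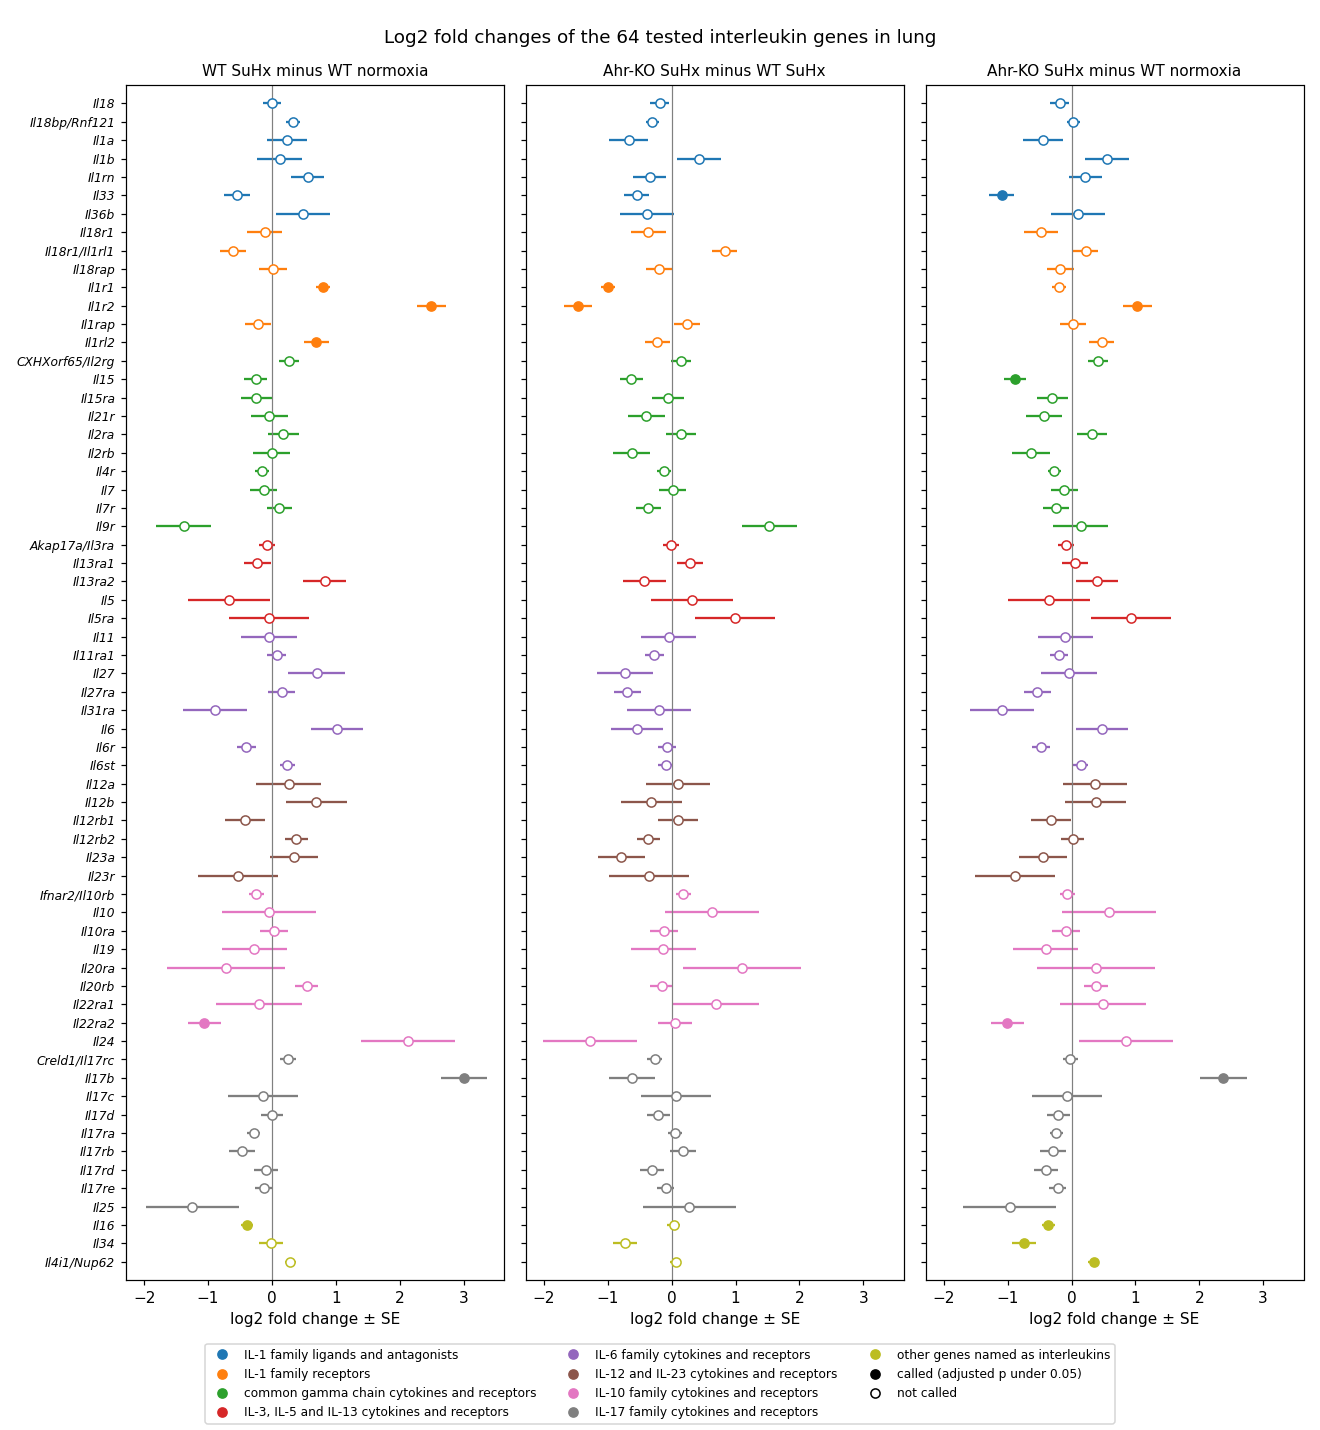
Log2 fold change ± SE of the 64 tested interleukin rows in the 3 lung comparisons, coloured by family, with filled circles for rows called at an adjusted p under 0.05. Il17b at 3.00 and Il1r2 at 2.50 stand farthest to the right in WT SuHx minus WT normoxia, and Il1r1 and Il1r2 are the 2 filled points in Ahr-KO SuHx minus WT SuHx.

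Among the 7 ligands and antagonists of the IL-1 family, 0 were called in WT SuHx against normoxia lungs, 0 between the genotypes and 1, Il33, in Ahr-KO against normoxia lungs. Il33, an alarm cytokine kept in the nucleus and released on injury, had a signal of 3412, 3884 and 2542 in Ahr-KO SuHx lungs, 4610.4, 5470.5 and 4170.2 in WT SuHx lungs, and 8138, 5323 and 7578 in normoxia lungs. The Ahr-KO libraries lay below all others, and the WT SuHx libraries lay between but overlapped the lowest normoxia library. Ahr-KO lungs were 2.14-fold lower than normoxia lungs (log2 -1.09 ± 0.20, adjusted p = 0.00874), and of 18 alternatives the call was lost in 1, without both library 2 of Ahr-KO and library 2 of normoxia (0.0515). Ahr-KO against WT SuHx lungs gave -0.55 ± 0.20 with no overlap (adjusted p = 0.279), and WT SuHx against normoxia lungs -0.55 ± 0.20 (adjusted p = 0.0946). Neither was called, but the second was without normoxia library 1 (0.0482).

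Il1a and Il1b, the agonists of Il1r1, were not called in lung. Il1a had a signal of 162, 172 and 176 in Ahr-KO SuHx lungs, 332, 398 and 152 in WT SuHx lungs, and 207, 274 and 218 in normoxia lungs. WT SuHx library 2 lay below every other lung library, and the other two WT SuHx libraries above every library of the other groups. Il1b had 430.3, 406 and 376 in Ahr-KO SuHx lungs, 217, 332 and 373 in WT SuHx lungs, and 232, 176 and 506 in normoxia lungs. Normoxia library 2 was the highest of all 9, and without it Il1b was called in Ahr-KO against normoxia lungs (adjusted p = 0.0317, beside 0.347 with it). The same library was the highest in normoxia for Il1rn, Il10ra and Il21r (521, 696 and 472). It was also the highest in summed B cell (2477, against 765 and 1488), neutrophil (5410, against 4448 and 2465) and T and NK cell markers (6143, against 4663 and 3717). In summed monocyte and macrophage markers it was the lowest (326583, against 327239 and 477509). The part of these cells in these values was not tested. Without normoxia library 2, Il1rn, the IL-1 receptor antagonist, was called in WT SuHx against normoxia lungs (adjusted p = 0.0498 in limma, beside 0.172 with that library).

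Il17b had the highest fold change of the called interleukin genes in WT SuHx lungs. It encodes a cytokine of the IL-17 family that binds Il17rb, and had a signal of 82.0, 55.8 and 67.6 in Ahr-KO SuHx lungs, 93.6, 107 and 115 in WT SuHx lungs, and 6.36, 14.5 and 19.2 in normoxia lungs. The 3 groups did not overlap. Il17b rose 8.01-fold in WT SuHx against normoxia lungs (log2 3.00 ± 0.36, adjusted p = 0.00115) and 5.20-fold in Ahr-KO against normoxia lungs (log2 2.38 ± 0.36, adjusted p = 0.00362), and both calls were kept in all 18 alternatives. Ahr-KO against WT SuHx lungs gave -0.62 ± 0.36 (95% interval -1.43 to 0.19, adjusted p = 0.463).

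None of the other 8 IL-17 family rows tested in lung was called. The receptors Il17ra and Il17rb gave -0.29 ± 0.10 and -0.47 ± 0.20 in WT SuHx against normoxia lungs (adjusted p = 0.0897 and 0.141), Il17rd, Il17re and the Creld1/Il17rc row lay between -0.12 and 0.25, and the ligands Il17c, Il17d and Il25 between -1.25 and 0.00. Il25, at the lower end, had a signal of 0 to 8.44 in the lung libraries. Between the genotypes the 9 rows spanned -0.62 (Il17b) to 0.27 (Il25).

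In the family of the common gamma chain, which serves the receptors for IL-2, IL-4, IL-7, IL-9, IL-15 and IL-21, 1 of 10 rows was called in lung and only in Ahr-KO against normoxia. Il15, a survival factor of NK cells and CD8 T cells, had a signal of 479, 457 and 444 in Ahr-KO SuHx lungs, 646, 833 and 674 in WT SuHx lungs, and 916, 1045 and 644 in normoxia lungs. Every Ahr-KO library lay below every other lung library, and the WT SuHx and normoxia lungs overlapped. Ahr-KO lungs were 1.85-fold lower than normoxia lungs (log2 -0.89 ± 0.18, adjusted p = 0.0135), a call lost without normoxia library 0 (0.0563) or Ahr-KO library 1 (0.0513). Ahr-KO against WT SuHx lungs gave -0.63 ± 0.18 (adjusted p = 0.174).

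Il9r, the receptor chain for IL-9, showed the same order as the Il18r1/Il1rl1 row at a low level. It had a signal of 60.4, 64.6 and 28.9 in Ahr-KO SuHx lungs, 25.5, 11.5 and 14.1 in WT SuHx lungs, and 52.5, 28.1 and 56.0 in normoxia lungs. The WT SuHx libraries lay below all others, and the Ahr-KO and normoxia libraries overlapped. Neither the 1.53 ± 0.43 of Ahr-KO against WT SuHx lungs (adjusted p = 0.179) nor the -1.38 ± 0.43 of WT SuHx against normoxia lungs (adjusted p = 0.0617) was called. The second was called without Ahr-KO library 2 (0.0401). Of 8 markers of mast cells and basophils, cells known for Il9r and Il1rl1, 0 were called between the genotypes. Kit made up 74.4 to 86.7% of their sum in the lung groups and was lower in both SuHx groups than in normoxia, and the other 7 summed to 692 to 1027 in Ahr-KO SuHx lungs, 825 to 974.8 in WT SuHx lungs and 784 to 885 in normoxia lungs. Their part in these rows was not tested.

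The remaining 8 gamma chain rows were not called in any lung comparison. Il4r gave -0.12 ± 0.11 between the genotypes, with a 95% interval of -0.36 to 0.12, and the row of Il2rg, the gamma chain itself, 0.15 ± 0.16. Il2rb, a chain shared by the IL-2 and IL-15 receptors, had 538, 683 and 271 in Ahr-KO SuHx lungs, 641, 760.1 and 755 in WT SuHx lungs, and 780.4, 579 and 821 in normoxia lungs. Ahr-KO library 2 lay far below the rest, and was also the lowest lung library in summed T and NK cell markers (2590, against 4359 and 4769 in the other two Ahr-KO libraries and 3622 to 6143 in the WT lungs). Their part in the Il2rb values was not tested. Il7, Il7r, Il2ra, Il15ra and Il21r spanned -0.40 to 0.14 between the genotypes.

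Of the 8 rows of the IL-6 family, 0 were called in any lung comparison. Il6st (gp130), the signalling chain that the family shares, had a signal of 12816, 12626 and 10945 in Ahr-KO SuHx lungs, 13767, 13576 and 11576 in WT SuHx lungs, and 10970.5, 11411 and 10447 in normoxia lungs. The WT SuHx lungs lay just above normoxia, and the difference of 0.24 ± 0.11 was not called (adjusted p = 0.18). Il6 had 10.8, 8.86 and 5.32 in Ahr-KO SuHx lungs, 12.3, 11.5 and 12.7 in WT SuHx lungs, and 8.75, 3.41 and 5.37 in normoxia lungs, where 3 reads are worth 2.23 to 2.84. The WT SuHx libraries were the highest and overlapped with neither other group, but the log2 differences of -0.54 ± 0.40 in Ahr-KO against WT SuHx lungs and 1.02 ± 0.40 in WT SuHx against normoxia lungs were not called (adjusted p = 0.564 and 0.12). Il6r, the ligand-binding chain, gave -0.40 ± 0.14 in WT SuHx against normoxia lungs (adjusted p = 0.0894) and -0.48 ± 0.14 in Ahr-KO against normoxia lungs (adjusted p = 0.0663). Both were called without normoxia library 0 (0.0418 and 0.0271). All 8 rows lay below 0 in Ahr-KO against WT SuHx lungs, between -0.73 (Il27) and -0.05 (Il11), while 53.3% of all rows lay above 0. Among the 8 was Il27ra at -0.69 ± 0.21 with no overlap (adjusted p = 0.21). Il6, Il11, Il27 and Il31ra were weakly measured, with means of 8.77, 8.37, 4.88 and 3.67 over the 9 lung libraries.

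The 5 rows of the IL-3, IL-5 and IL-13 group and the 6 of the IL-12 and IL-23 group also held no called row in lung. The row of Il3ra, the IL-3 receptor chain, and Akap17a had a signal of 2462, 2264 and 2501 in Ahr-KO SuHx lungs, 2249, 2212 and 2851 in WT SuHx lungs, and 2715, 2775 and 2208 in normoxia lungs. The groups overlapped, and the difference between the genotypes was -0.01 ± 0.13, while Il13ra2, a decoy receptor for IL-13, gave 0.83 ± 0.33 in WT SuHx against normoxia lungs (adjusted p = 0.126). Il12rb2, a chain of the IL-12 receptor, had a signal of 1436, 1531 and 2123 in Ahr-KO SuHx lungs, 2074, 1769.9 and 2722 in WT SuHx lungs, and 1607, 1610.5 and 1737 in normoxia lungs. The WT SuHx lungs lay above normoxia and overlapped with Ahr-KO, and no difference was called (0.38 ± 0.18 in WT SuHx against normoxia, adjusted p = 0.173). Il23a, the subunit particular to IL-23, gave -0.79 ± 0.37 in Ahr-KO against WT SuHx lungs with overlapping groups (adjusted p = 0.383).

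In the IL-10 family 1 of 9 rows tested in lung was called. Il22ra2, a soluble receptor that binds and blocks IL-22, had a signal of 46.4, 33.7 and 35.7 in Ahr-KO SuHx lungs, 35.9, 35.9 and 38.7 in WT SuHx lungs, and 108, 64.8 and 66.7 in normoxia lungs. Both SuHx groups lay below normoxia and overlapped with each other. Il22ra2 was 2.08-fold lower in WT SuHx than in normoxia lungs (log2 -1.06 ± 0.26, adjusted p = 0.0288) and 2.00-fold lower in Ahr-KO SuHx than in normoxia lungs (95% interval on the log2 scale -1.59 to -0.42, adjusted p = 0.0416). The first call was lost without normoxia library 0 (0.104) or WT SuHx library 0, 1 or 2 (0.0884, 0.0561 and 0.0672). The second was lost in 10 of 18 alternatives, among them without normoxia library 0 or 1 (0.143 and 0.0575), WT SuHx library 0 or 1 (0.069 and 0.0619) and Ahr-KO library 0, 1 or 2 (0.0589, 0.138 and 0.105). It was also lost without both library 2 of Ahr-KO and library 2 of normoxia (0.0856). Il22 was listed at 0 in all 9 lung libraries. Il24 was listed at 0, 4.91 and 0 in Ahr-KO SuHx lungs, at 2.47, 2.28 and 6.44 in WT SuHx lungs, values near the worth of 3 reads, and at 0 in the normoxia lungs, so no fold is given. Without Ahr-KO library 1 it was called in WT SuHx against normoxia lungs (adjusted p = 0.0428, beside 0.0827 with it). Il10, Il10ra, Il19, Il20ra, Il20rb, Il22ra1 and the Ifnar2/Il10rb row were not called.

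Of the 3 other genes named as interleukins, all were called in Ahr-KO against normoxia lungs (beside 9.75% of all rows) and 1, Il16, in WT SuHx against normoxia lungs (beside 13.5%). Il34, a ligand of the macrophage receptor Csf1r, had a signal of 1213, 1197 and 806 in Ahr-KO SuHx lungs, 1833, 1878 and 1563 in WT SuHx lungs, and 2004, 1982 and 1400.5 in normoxia lungs. The Ahr-KO libraries lay below all others, while WT SuHx and normoxia lungs overlapped. Ahr-KO lungs were 1.68-fold lower than normoxia lungs (log2 -0.75 ± 0.19, adjusted p = 0.0371), a call lost in 8 of 18 alternatives. The adjusted p was 0.13 and 0.118 without normoxia library 0 and 1, 0.0603 and 0.0518 without WT SuHx library 0 and 1, and 0.0652 and 0.0949 without Ahr-KO library 1 and 2. Ahr-KO against WT SuHx lungs gave a like -0.73 ± 0.19 that was not called (adjusted p = 0.153).

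Il16, a chemoattractant of CD4 T cells, had a signal of 1297, 1299.7 and 1162 in Ahr-KO SuHx lungs, 1241, 1165 and 1272 in WT SuHx lungs, and 1550.5, 1495 and 1792 in normoxia lungs. Both SuHx groups lay below normoxia. It fell by 0.39 ± 0.10 on the log2 scale in WT SuHx lungs (adjusted p = 0.0288) and by 0.36 ± 0.10 in Ahr-KO SuHx lungs (adjusted p = 0.0465). These calls were lost in 10 and 14 of 18 alternatives. For WT SuHx the adjusted p was 0.0704 and 0.0585 without normoxia library 0 and 2, 0.0851, 0.0631 and 0.0509 without WT SuHx library 0, 1 and 2, and 0.0513 without Ahr-KO library 1. For Ahr-KO the call was kept only without WT SuHx library 2 among the 9 fits that left out 1 library, and the others gave 0.0603 (without WT SuHx library 1) to 0.134 (without Ahr-KO library 2). Without both library 2 of Ahr-KO and library 2 of normoxia the Ahr-KO log2 value was -0.23 (adjusted p = 0.179).

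The row of Il4i1, a secreted amino acid oxidase whose products activate the aryl hydrocarbon receptor in human cells, is shared with the nuclear pore gene Nup62. It had 1149, 1180.5 and 1267 in Ahr-KO SuHx lungs, 1141, 1089 and 1205 in WT SuHx lungs, and 955, 892 and 973 in normoxia lungs. Both SuHx groups lay above normoxia, and the row was called in Ahr-KO SuHx lungs (log2 0.35 ± 0.09, adjusted p = 0.0326) but not in WT SuHx lungs (0.28 ± 0.09, adjusted p = 0.0559). The call was lost in 9 of 18 alternatives, with 0.0892 and 0.108 without normoxia library 0 and 1, 0.0636 without WT SuHx library 0, and 0.0629, 0.103 and 0.1 without Ahr-KO library 0, 1 and 2. Without both library 2 of Ahr-KO and library 2 of normoxia the adjusted p was 0.0859.

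The genes that pass these signals on were set beside the receptors in 4 lists, and none of their rows was called in Ahr-KO against WT SuHx lungs. Of 16 cytokines and receptors of the same families under other names, 3 were called in WT SuHx against normoxia lungs (18.8%, beside 13.5% of all rows) and 2 in Ahr-KO against normoxia lungs (12.5%, beside 9.75%). Osmr, the receptor chain for oncostatin M that pairs with gp130, had a signal of 873, 925 and 1081 in Ahr-KO SuHx lungs, 938, 763 and 518 in WT SuHx lungs, and 443, 469 and 416 in normoxia lungs. Both SuHx groups lay above normoxia, by log2 1.11 ± 0.19 in Ahr-KO (adjusted p = 0.00725) and 0.70 ± 0.19 in WT lungs (adjusted p = 0.0432). Cntfr, the chain for ciliary neurotrophic factor, had 73.5, 52.2 and 45.6 in Ahr-KO SuHx lungs, 36.9, 26.8 and 38.0 in WT SuHx lungs, and 127, 235 and 141 in normoxia lungs. It was lower in both SuHx groups, by log2 -1.51 ± 0.30 in Ahr-KO (adjusted p = 0.0128) and -2.24 ± 0.30 in WT lungs (adjusted p = 0.00189). Clcf1, another ligand that uses Cntfr, gave -0.51 ± 0.14 in WT SuHx against normoxia lungs (adjusted p = 0.0461).

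Of 14 transducers of the IL-1 and IL-17 receptors, Irak2 and Traf3ip2 fell in both SuHx groups (14.3% of the list, beside 13.5% of all rows called in WT SuHx and 9.75% in Ahr-KO against normoxia). Irak2, a kinase-like adaptor downstream of MyD88, had a signal of 584, 654 and 588 in Ahr-KO SuHx lungs, 676, 606 and 532 in WT SuHx lungs, and 788, 926 and 903 in normoxia lungs. Traf3ip2, which encodes the IL-17 receptor adaptor Act1, had 1594, 1509.9 and 1469 in Ahr-KO SuHx lungs, 1473, 1717 and 1527 in WT SuHx lungs, and 2959, 2626 and 2089 in normoxia lungs. In both genes the SuHx groups overlapped with each other and lay below normoxia. Irak2 gave log2 -0.52 ± 0.12 in Ahr-KO against normoxia lungs and -0.53 ± 0.12 in WT SuHx against normoxia lungs (adjusted p = 0.0255 and 0.0195), and Traf3ip2 -0.73 ± 0.13 and -0.69 ± 0.13 (adjusted p = 0.00705 and 0.00891). Of 19 rows of JAK, STAT and SOCS genes, 1 was called in WT SuHx against normoxia lungs (5.26%, beside 13.5% of all rows). In Ahr-KO against normoxia lungs 2 were called (10.5%, beside 9.75%), 1 higher and 1 lower. The one that rose was the inhibitor Socs1 (log2 0.84 ± 0.19, adjusted p = 0.0222). Of 11 inflammasome and processing genes, 1 was called in WT SuHx against normoxia lungs (9.09%, beside 13.5% of all rows) and 0 in Ahr-KO against normoxia lungs. This was Casp4, which fell in WT SuHx against normoxia lungs (-0.72 ± 0.17, adjusted p = 0.0263), while Ahr-KO against WT SuHx lungs gave 0.46 ± 0.17 with no overlap (adjusted p = 0.292).

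In ECs of normoxia rats the share of interleukin rows called against the whole normoxia lung was near that of all rows. Il17a, Il22 and Il24 were listed at 0 in normoxia lungs. Over the 6 libraries of this fit they reached the mean of 1 only through the ECs, and they are left out of the counts. Of the 62 other rows tested, 40 were called, 26 higher and 14 lower in ECs, which is 64.5% beside 56.2% of all rows (26.1% higher and 30.1% lower). With the 3 rows included the split was 29 higher and 14 lower, and 31 higher and 8 lower after quantile normalization. The median log2 difference was 0.43 over the 62 rows and -0.05 over all rows, and 43 of the 62 did not overlap, beside 65.5% of all rows.

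The EC libraries were rich in endothelial RNA but held marker RNA of other cell types too. Summed endothelial markers were 261127 to 318900 in ECs, against 91377 to 96038 in normoxia lungs, with 10 of 10 markers called higher. Alveolar epithelial markers were 116737 to 256372 in ECs, against 520825 to 758585 in normoxia lungs, with 12 of 12 called lower. B cell markers were 6385 to 7561 in ECs, against 765 to 2477 in normoxia lungs, and neutrophil markers 8190 to 9849 in ECs, against 2465 to 5410 in normoxia lungs, with 5 of 5 and 8 of 10 called higher. Mast cell and basophil markers other than Kit were 869 to 1576 in ECs, against 784 to 885 in normoxia lungs (3 of 8 higher with Kit, Mcpt1 at 0 in ECs). Monocyte and macrophage markers other than Lyz2 were 10916 to 17174 in ECs, against 15430 to 18321 in normoxia lungs (2 of 9 higher and 3 lower with Lyz2, Marco at 0 in ECs). In this sum the merged Csf1r/Pdgfrb row had 2964 to 4264 in ECs, against 9191 to 10688 in normoxia lungs, so the sum is not macrophage signal alone. T and NK cell markers were 4968 to 12039 in ECs, against 3717 to 6143 in normoxia lungs (4 of 11 higher and 3 lower). The part of these cells in the EC values of interleukin genes was not tested.

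Il6, Il1a and Il1b had the highest fold changes in ECs among the rows not listed at 0 in normoxia lungs. Il6 had a signal of 293, 584 and 587 in ECs, against 8.75, 3.41 and 5.37 in normoxia lungs. It was 71.7-fold higher in ECs (log2 6.16 ± 0.41, adjusted p = 4.75e-05). Il1a had 7598, 9593 and 6002 in ECs, against 207, 274 and 218 in normoxia lungs, and Il1b had 7818, 9510.1 and 8067 in ECs, against 232, 176 and 506 in normoxia lungs. They were 32.7-fold and 30.6-fold higher in ECs (log2 5.03 ± 0.19 and 4.94 ± 0.35, adjusted p = 7.51e-06 and 6.22e-05), and all EC libraries lay above all lung libraries of the 3 other groups for these 3 genes. The antagonist Il1rn had 1573, 2097 and 1263 in ECs, against 348, 265 and 521 in normoxia lungs (log2 2.14 ± 0.28, adjusted p = 0.000612).

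Both IL-1 receptors that fell in Ahr-KO lungs were higher in ECs. Il1r1 had a signal of 7084, 12963 and 7736 in ECs, against 2658, 2295 and 2268 in normoxia lungs (log2 1.89 ± 0.22, adjusted p = 0.000409). Il1r2 had 527, 809 and 1096 in ECs, against 28.6, 39.2 and 42.9 in normoxia lungs, a 20.8-fold higher level (log2 4.38 ± 0.30, adjusted p = 5.33e-05). For both genes the EC libraries lay above all libraries of the other groups. Il1rl2, by contrast, had 47.8, 75.9 and 64.9 in ECs, against 107, 129 and 92.8 in normoxia lungs (log2 -0.80 ± 0.25, adjusted p = 0.0295), a call lost without normoxia library 0 or 1 (0.0767 and 0.0888) or EC library 0 (0.0883), and after quantile normalization (log2 -0.11, adjusted p = 0.748). Il18r1 alone in its row gave -1.84 ± 0.63 (adjusted p = 0.0405), which was lost without each of the normoxia libraries (0.0711 to 0.105) and without EC library 0 or 1 (0.118 and 0.12), and after quantile normalization (log2 -1.09, adjusted p = 0.202).

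The other rows with a lung call were higher, lower or not called in ECs. Il15 had a signal of 1737, 1822 and 1789 in ECs, against 916, 1045 and 644 in normoxia lungs (log2 1.07 ± 0.17, adjusted p = 0.00169). Il22ra2 had 162, 222 and 136 in ECs, against 108, 64.8 and 66.7 in normoxia lungs (1.12 ± 0.29, adjusted p = 0.0129). These EC libraries were the highest of all 12 for both genes. Il34 was lower in ECs, with 897, 581 and 719, against 2004, 1982 and 1400.5 in normoxia lungs (-1.30 ± 0.20, adjusted p = 0.00136). Il17b was close to absent, with 1.14, 0 and 4.99 in ECs, against 6.36, 14.5 and 19.2 in normoxia lungs, where 3 reads are worth 3.42 to 3.74 in an EC library. Its log2 difference of -2.50 ± 0.74 (adjusted p = 0.0236) was lost without normoxia library 1 or 2 (0.0632 and 0.0779) or EC library 0 or 1 (0.0639 and 0.0646), and after quantile normalization (0.0638). Il33 had 9143, 9000.4 and 8878 in ECs, against 8138, 5323 and 7578 in normoxia lungs, and was not called (0.38 ± 0.16, adjusted p = 0.0787, but 0.0474 without normoxia library 0). Il16 was not called (-0.30 ± 0.17, adjusted p = 0.167, but 0.0142 without EC library 2), and the Il4i1/Nup62 row was higher in ECs (0.62 ± 0.08, adjusted p = 0.000689).

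**Figure D4:**
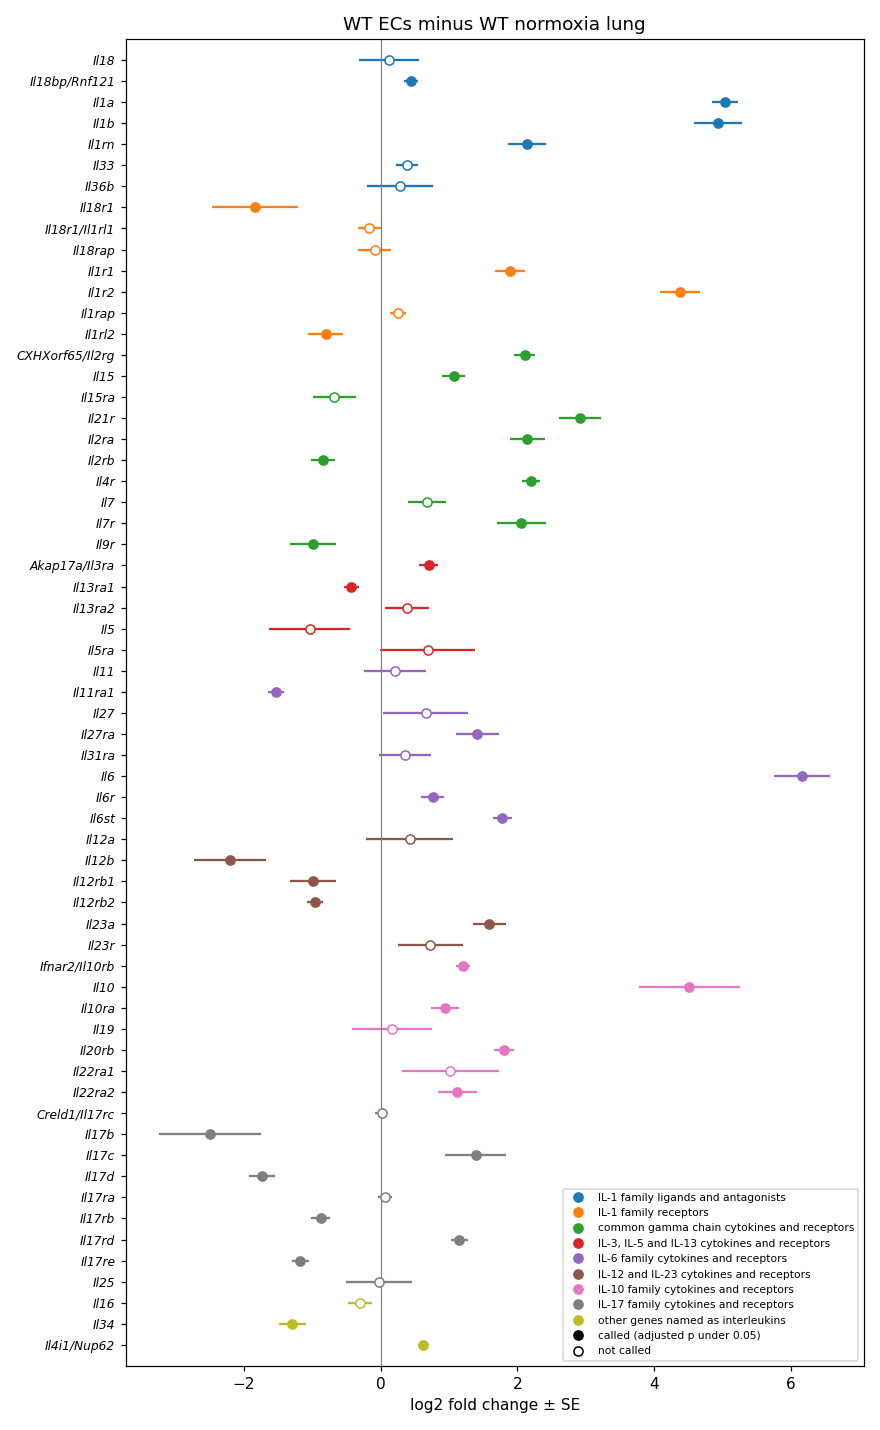
Log2 fold change ± SE of 62 interleukin rows in WT ECs minus WT normoxia lung, coloured by family, with filled circles for rows called at an adjusted p under 0.05; Il17a, Il22 and Il24, listed at 0 in normoxia lungs, are left out. Il6 at 6.16, Il1a at 5.03 and Il1b at 4.94 stand farthest to the right, and Il17b at -2.50 farthest to the left.

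In the common gamma chain family 6 of 10 rows were higher and 2 lower in ECs (80% called, beside 56.2% of all rows). Il4r had a signal of 19188, 24586 and 21952 in ECs, against 4491, 4379 and 5430.4 in normoxia lungs (log2 2.20 ± 0.13, adjusted p = 3.75e-05), the Il2rg row 4011, 4383 and 5566 in ECs, against 1055, 937 and 1241 in normoxia lungs (2.10 ± 0.15, adjusted p = 6.41e-05), and Il21r, which B cells are known to carry, 1865, 2439 and 3352 in ECs, against 329, 226 and 472 in normoxia lungs (2.92 ± 0.30, adjusted p = 0.000248). Il2rb and Il9r were lower (-0.85 ± 0.18 and -0.99 ± 0.34, adjusted p = 0.00589 and 0.0399). The Il9r call was kept only without normoxia library 1 among the 6 fits that left out 1 library; the others gave 0.0648 (without EC library 2) to 0.128 (without normoxia library 0), and quantile normalization gave log2 -0.22 (adjusted p = 0.576).

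In the IL-6 family Il6st had 32452, 38803 and 42089.9 in ECs, against 10970.5, 11411 and 10447 in normoxia lungs (log2 1.78 ± 0.13, adjusted p = 7.28e-05), and Il6r and Il27ra were higher as well (0.76 ± 0.17 and 1.41 ± 0.31, adjusted p = 0.00675 and 0.00707). Il11ra1, the IL-11 receptor chain, was lower, with 509.7, 442 and 395 in ECs, against 1215, 1294 and 1366 in normoxia lungs (-1.53 ± 0.12, adjusted p = 8.03e-05). In the IL-10 family 5 of 7 rows not listed at 0 in normoxia lungs were higher (71.4% called, beside 56.2% of all rows). Among them were Il20rb (1.80 ± 0.15, adjusted p = 9.3e-05), the Ifnar2/Il10rb row (1.20 ± 0.11, adjusted p = 0.000147) and Il10, with 30.7, 47.0 and 112 in ECs, against 1.59, 0 and 4.60 in normoxia lungs. Il24 had 26.2, 57.0 and 14.0 and Il22 6.83, 6.03 and 4.99 in ECs, while both were listed at 0 in normoxia lungs, so no fold is given.

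In the IL-17 family 2 of 9 rows other than Il17a were higher and 4 lower (66.7% called, beside 56.2% of all rows). Il17rd was higher (log2 1.15 ± 0.12, adjusted p = 0.000283), Il17a had a signal of 12.5, 8.44 and 3.74 in ECs against a listed 0 in normoxia lungs, and Il17c gave 1.39 ± 0.45 (adjusted p = 0.032), lost without normoxia library 1 or 2 (0.081 and 0.0866) or EC library 0 or 1 (0.107 and 0.0789). Il17d, Il17re and Il17rb were lower beside Il17b (-1.73 ± 0.19, -1.17 ± 0.13 and -0.88 ± 0.14, adjusted p = 0.000313, 0.000336 and 0.00158). In the IL-12 and IL-23 group Il23a was higher (1.59 ± 0.24, adjusted p = 0.00123). Il12rb2 was lower, with 770.4, 799.9 and 980.3 in ECs, against 1607, 1610.5 and 1737 in normoxia lungs (-0.96 ± 0.11, adjusted p = 0.000398), as were Il12b (-2.21 ± 0.53, adjusted p = 0.01) and Il12rb1 (-0.99 ± 0.34, adjusted p = 0.0394). The Il12rb1 call was lost without normoxia library 0 or 2 (0.124 and 0.0909) or EC library 0 or 1 (0.114 and 0.0832), and after quantile normalization (log2 -0.20, adjusted p = 0.654). In the IL-3, IL-5 and IL-13 group the Akap17a/Il3ra row was higher (0.70 ± 0.14, adjusted p = 0.00418) and Il13ra1 lower (-0.43 ± 0.11, adjusted p = 0.0127, but 0.0645 after quantile normalization).

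The 22 rows not called in ECs included Il18, Il1rap, Il18rap, the Il18r1/Il1rl1 row, Il7 and Il17ra. Of these Il1rap gave log2 0.25 ± 0.12 (95% interval -0.03 to 0.53) and Il17ra 0.06 ± 0.10 (95% interval -0.18 to 0.30). Of the lists of signalling genes, 14 of 19 JAK, STAT and SOCS rows were higher in ECs and 0 lower (73.7% called, beside 56.2% of all rows), and 9 of 14 transducers of the IL-1 and IL-17 receptors were higher and 2 lower (78.6% called). Socs3, a feedback inhibitor of gp130 signalling chosen here after its values were seen, had 34620.0, 66306 and 37965 in ECs, against 1063, 753 and 1357 in normoxia lungs.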

How the data were processed

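The deposited table gives, per gene and library, a signal: an estimated read count that the authors divided by 1 factor per library, as its low values show (80.9 to 81.7% are whole multiples of 1 read within 0.05), with 1 read worth 0.745 to 1.25 and 20000000 to 28600000 reads per library. Per the submitters' processing notes the build was rn6 and FastQC was run; the sources used here do not give the aligner, counter, scaling or strand. Columns name a group and a number 0 to 2 that the labels do not repeat, so libraries were tied to groups only. Rows with a mean of at least 1 over the libraries fitted were tested with limma 3.58.1 (R 4.3.3) on log2(signal + 1) with a variance trend and Benjamini-Hochberg adjustment over all rows, with 9 lung libraries in 1 fit and 6 libraries for ECs against normoxia lung. The unit is not a raw count, so no count model was used. The procedure was tested on simulated data. Genes named with all values were those called in lung, the highest in each family without a call, up to 3 per family and direction in ECs, and up to 4 called genes per list of signalling genes, of which 1 is not reported here. Il9r, Il6, Il27ra, Il24 and other uncalled lung genes were named after their values were seen. Members and lists were chosen with earlier results of these data known. Alternatives changed the trend, scaling, low-value filter, pseudocount, libraries fitted and replicate block.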

Additional observations from a re-analysis of the deposited data

How the results depend on the processing

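Beside the 6 interleukin rows called in WT SuHx against normoxia lungs, 11 were called (8 higher and 3 lower) with the column number as a replicate block, and 3 to 7 without 1 library. Beside the 2 called in Ahr-KO against WT SuHx lungs, 1 was called without both library 2 of normoxia and of Ahr-KO, and 1 to 2 without 1 library. Beside the 8 called in Ahr-KO against normoxia lungs, 5 were called without the variance trend, 3 with only the groups compared in the fit, 4 without both library 2, and 2 to 8 without 1 library. The EC counts here include Il17a, Il22 and Il24: beside the 43 called in ECs against normoxia lungs (40 without those rows), 38 to 44 were called without 1 library. The cause of these shifts was not tested. With the replicate block 3 rows were called in Ahr-KO against WT SuHx lungs, among them Il34 (adjusted p = 0.021 in limma), 8 in Ahr-KO against normoxia lungs and 42 in ECs, and over all rows 3385, 82, 2171 and 8559, against 2052, 76, 1485 and 8539 without it. The numbers were not shown to pair the libraries: 3 of 9 same-number pairs correlated over 0.1 (range -0.0402 to 0.216), and 6 of 9 libraries correlated best with their own number. The trimmed mean of M values was computed from the signal, and of the values tested under the alternatives, 0 of 52 called log2 values changed sign, while 30 of 97 that were not called did, such as Il33 in ECs (-0.08 to 0.50). Each group had 3 libraries, and 14 rows had a mean signal under 10. The sources used here do not say whether libraries are separate animals.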
